A study of Mus musculus with 6 samples.

Results

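The 7 genes described here encode chemokine receptors of leukocytes in the brain: Ccr1, Ccr2, Ccr7, Cxcr3, Cxcr4, Cxcr6 and Ccrl2. They were taken by gene symbol from a table of 20129 genes, in which all 7 were found, and all 7 were among the 11900 genes that passed the filter on low values (1 CPM or more in 3 or more of the 6 libraries; CPM are reads scaled to a library total of 1000000). The libraries were RNA-seq of cells sorted from perfused and digested brains of C57BL6/J mice aged 5 months as 7AAD-negative (live), CD45+ and CD11b+, and labelled microglia. All mice carried 5xFAD, a set of mutant human transgenes under the neuronal Thy1 promoter that leads to amyloid deposits in the brain. The 3 libraries of the first group came from 5xFAD mice (replicates 4, 5 and 6), and the 3 of the second from 5xFAD mice that lacked interleukin-3 in addition (Il3-/-5xFAD, replicates 1, 2 and 3). Each library pooled 4 mice, 2 male and 2 female, so the spread between libraries is a spread between pools, and no library came from mice without the transgenes. The question put to these genes was whether receptors of leukocytes that enter the brain and receptors of resident microglia differed between the genotypes.

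Chemokine receptors are proteins of the cell surface that cross the membrane several times and signal through inhibitory G proteins, which steers a cell along a gradient of its ligand. Resident microglia are known for the fractalkine receptor Cx3cr1, while Ccr2 brings inflammatory monocytes out of the bone marrow towards Ccl2 and Ccl7, Cxcr3 and Cxcr6 mark activated and tissue-resident T cells and NK cells, and Ccr7 brings T cells and mature dendritic cells to lymph nodes. Ccr1 and Cxcr4 are carried by several kinds of myeloid cell, and Ccrl2 is an atypical receptor that binds chemerin without signalling through G proteins. A gate on CD45 and CD11b admits monocytes, neutrophils and some lymphocytes beside microglia.

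The promoters of Cxcr6, Cxcr4 and Cxcr3 are shown because these are the 3 receptors whose libraries did not overlap between the genotypes. Each run holds the 250 bases before and the 50 bases after the RefSeq start in the gene's direction (GRCm38.p6, another build than that of the deposited data), on chr9:123806227-123806526 of the plus strand for Cxcr6, chr1:128592250-128592549 of the minus strand for Cxcr4 and chrX:101734098-101734397 of the minus strand for Cxcr3. Capitals mark matches, on either strand, to 6 short motifs.
Cxcr6: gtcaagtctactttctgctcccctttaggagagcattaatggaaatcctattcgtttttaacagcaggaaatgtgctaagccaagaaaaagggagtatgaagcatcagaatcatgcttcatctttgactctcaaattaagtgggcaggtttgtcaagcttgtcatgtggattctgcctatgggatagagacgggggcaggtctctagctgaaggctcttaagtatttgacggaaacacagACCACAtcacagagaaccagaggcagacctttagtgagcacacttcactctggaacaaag
Cxcr4: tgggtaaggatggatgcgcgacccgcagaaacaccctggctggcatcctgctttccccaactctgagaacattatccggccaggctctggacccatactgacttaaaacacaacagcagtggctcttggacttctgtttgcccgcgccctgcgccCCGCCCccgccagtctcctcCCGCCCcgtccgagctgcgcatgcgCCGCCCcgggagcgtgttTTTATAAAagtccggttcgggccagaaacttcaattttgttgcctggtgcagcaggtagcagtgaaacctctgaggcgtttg
Cxcr3: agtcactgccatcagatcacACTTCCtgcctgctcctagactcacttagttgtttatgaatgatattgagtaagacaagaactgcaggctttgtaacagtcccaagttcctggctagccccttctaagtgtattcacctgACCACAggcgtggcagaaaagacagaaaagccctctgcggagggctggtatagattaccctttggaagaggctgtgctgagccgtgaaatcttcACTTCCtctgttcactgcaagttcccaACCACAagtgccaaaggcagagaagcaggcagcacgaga
The motifs were the RUNX motif TGTGGT, the ETS motif GGAAGT, the GC box GGGCGG, the TATA motif TATAAA, the T-box motif TCACACC and the GAS motif TTCNNNGAA of STAT proteins, each taken as these letters only. Cxcr6 held 1 RUNX match, 10 bases before the start, and no other. Cxcr3 held 2 RUNX and 2 ETS matches. Cxcr4 held 3 GC boxes and 2 overlapping TATA matches, 32 and 30 bases before the start, and no RUNX or ETS match. No motif was shared by all 3 promoters, and none of the 3 held the GAS or the T-box letters. Of 32851 promoters of the same length, 16.8% held the RUNX letters, 23.8% the ETS letters, 35.7% the GC box, 13.6% the TATA letters, 3.98% the T-box letters and 8.30% the GAS letters. GC content was 44.3% in Cxcr6, 49.3% in Cxcr3 and 59.3% in Cxcr4.

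Library totals ran from 27970850 to 37605490 reads. Il3 had between 29 and 61 reads in the 5xFAD libraries and none in the 3 Il3-/-5xFAD libraries, as the labels state. Microglial markers were abundant in both groups: the means of P2ry12 were 2768 ± 134 CPM (5xFAD) and 3189.7 ± 381 CPM (Il3-/-5xFAD; SD, n = 3), and those of Fcrls were 2579 ± 159 and 2968 ± 246 CPM. Replicates differed by more than counting noise in every pair (chi-square over its degrees of freedom at least 22.1).

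Levels of the 7 receptors spanned a wide range when reads were divided by the length of the longest GENCODE transcript, so that genes could be compared. In 5xFAD the order by CPM per kilobase was Ccrl2 (67.4), Cxcr4 (17.3), Cxcr6 (11.7), Ccr2 (8.19), Ccr1 (6.23), Cxcr3 (4.94) and Ccr7 (1.04). Only at the first and the last step were the ranges of the 3 libraries separate, and the ranges of neighbours from Cxcr4 to Cxcr3 overlapped. Compared within each 5xFAD library, the order of neighbours held except in replicate 4, where Ccr1 (6.73) lay above Ccr2 (6.52). In Il3-/-5xFAD the order was Ccrl2 (81.4 CPM per kilobase), Cxcr4 (9.44), Ccr2 (6.42), Ccr1 (5.20), Cxcr6 (4.98), Cxcr3 (3.12) and Ccr7 (0.728), and the ranges of neighbours from Cxcr4 to Cxcr6 overlapped. Within libraries this order of neighbours changed in replicate 2, where Cxcr6 (5.06) lay above Ccr1 (3.76). It also changed in replicate 3, where Ccr1 (6.12) lay above Ccr2 (4.99). By the group means Cxcr6 stood in the third place in 5xFAD and in the fifth in Il3-/-5xFAD. Cx3cr1, the microglial receptor, was at 1226 and 1361 CPM per kilobase. The value of Ccr2 rests on a transcript of 5728 bases, and a shorter main transcript would raise it.

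Among the receptors of infiltrating leukocytes, Cxcr6 fell in Il3-/-5xFAD and was the only one of the 7 receptors to pass the test. Cxcr6, the receptor of Cxcl16, was at 17.4, 21.1 and 28.6 CPM in 5xFAD replicates 4, 5 and 6 and at 10.3, 9.66 and 8.55 CPM in Il3-/-5xFAD replicates 1, 2 and 3. Every Il3-/-5xFAD library lay below every 5xFAD library, and the Il3-/-5xFAD libraries lay closer together. The means were 22.3 ± 5.72 and 9.51 ± 0.890 CPM (SD, n = 3), which is -1.13 ± 0.19 (SE) in log2(CPM + 1) at a limma adjusted p of 0.0225, lower in 3 of 3 libraries. On the reads recovered from the CPM values the adjusted p was 0.0292 by edgeR's quasi-likelihood test and 2.92e-06 by DESeq2. The limma call was lost without 5xFAD replicate 5 (limma adjusted p = 0.0807), 5xFAD replicate 6 (0.172) or Il3-/-5xFAD replicate 2 (0.0511), and with no filter (0.205) or no variance trend (0.110), with log2 differences from -1.15 to -0.94.

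Cxcr3, the receptor of the interferon-induced chemokines Cxcl9, Cxcl10 and Cxcl11, was at 6.51, 8.48 and 10.7 CPM in 5xFAD replicates 4, 5 and 6 and at 5.10, 4.94 and 6.18 CPM in Il3-/-5xFAD replicates 1, 2 and 3. The groups did not overlap, but the highest Il3-/-5xFAD library and the lowest 5xFAD library were close. The log2 difference was -0.56 ± 0.21 (SE), which did not pass (limma adjusted p = 0.214).

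Ccr2, the monocyte receptor, was at 37.4, 52.5 and 50.8 CPM in 5xFAD replicates 4, 5 and 6 and at 56.3, 25.5 and 28.6 CPM in Il3-/-5xFAD replicates 1, 2 and 3. Il3-/-5xFAD replicate 1 held the highest level of all 6 libraries, while the other two libraries of its group lay below all of 5xFAD. The log2 difference was -0.42 ± 0.24 (SE; limma adjusted p = 0.422), and without Il3-/-5xFAD replicate 1 it was -0.76 and passed (limma adjusted p = 0.0384). Transcripts of Ccr1, Ccr7, Cxcr3, Cxcr4, Cxcr6 and Ccrl2 shared no stretch of 50 bases with any other gene in GENCODE. Ccr7 was near the filter, at 2.04, 2.56 and 1.60 CPM in 5xFAD replicates 4, 5 and 6 and at 2.32, 1.24 and 0.758 CPM in Il3-/-5xFAD replicates 1, 2 and 3. Its groups overlapped, and its log2 difference of -0.37 had an interval from -1.03 to 0.29 (95%, limma; adjusted p = 0.589), on 25 to 75 reads per library.

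Of the receptors carried by several myeloid cells, Cxcr4, the receptor of Cxcl12 that retains neutrophils and other blood cells in the bone marrow, came closest to the threshold. It was at 25.8, 33.0 and 35.0 CPM in 5xFAD replicates 4, 5 and 6 and at 22.3, 13.3 and 15.6 CPM in Il3-/-5xFAD replicates 1, 2 and 3, without overlap. The means were 31.3 ± 4.80 and 17.0 ± 4.67 CPM (SD, n = 3), and the log2 difference of -0.86 ± 0.18 (SE) missed the threshold narrowly (limma adjusted p = 0.0514; edgeR 0.0724; DESeq2 0.000951). It passed with robust estimation (limma adjusted p = 0.0440), with array weights (0.0118), when 5xFAD replicate 4 (0.0340) or Il3-/-5xFAD replicate 1 (0.0139) was left out.

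Ccr1, a receptor of Ccl3 and Ccl5 on monocytes and neutrophils, was at 19.1, 14.9 and 19.1 CPM in 5xFAD replicates 4, 5 and 6 and at 16.2, 10.7 and 17.3 CPM in Il3-/-5xFAD replicates 1, 2 and 3. The groups overlapped (log2 difference -0.27 ± 0.19, SE; limma adjusted p = 0.528), and the difference was -0.06 without Il3-/-5xFAD replicate 2 and did not pass in any alternative. Ccrl2 was the only one of the 7 with a higher mean in Il3-/-5xFAD. It was at 190.0, 152 and 155 CPM in 5xFAD replicates 4, 5 and 6 and at 216, 229 and 154 CPM in Il3-/-5xFAD replicates 1, 2 and 3, so that Il3-/-5xFAD replicate 3 lay within 5xFAD and the other two above it. The log2 difference of 0.26 ± 0.14 (SE) did not pass (limma adjusted p = 0.389), and without Il3-/-5xFAD replicate 3 it was 0.43 and did (limma adjusted p = 0.0461).

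**Figure D1:**
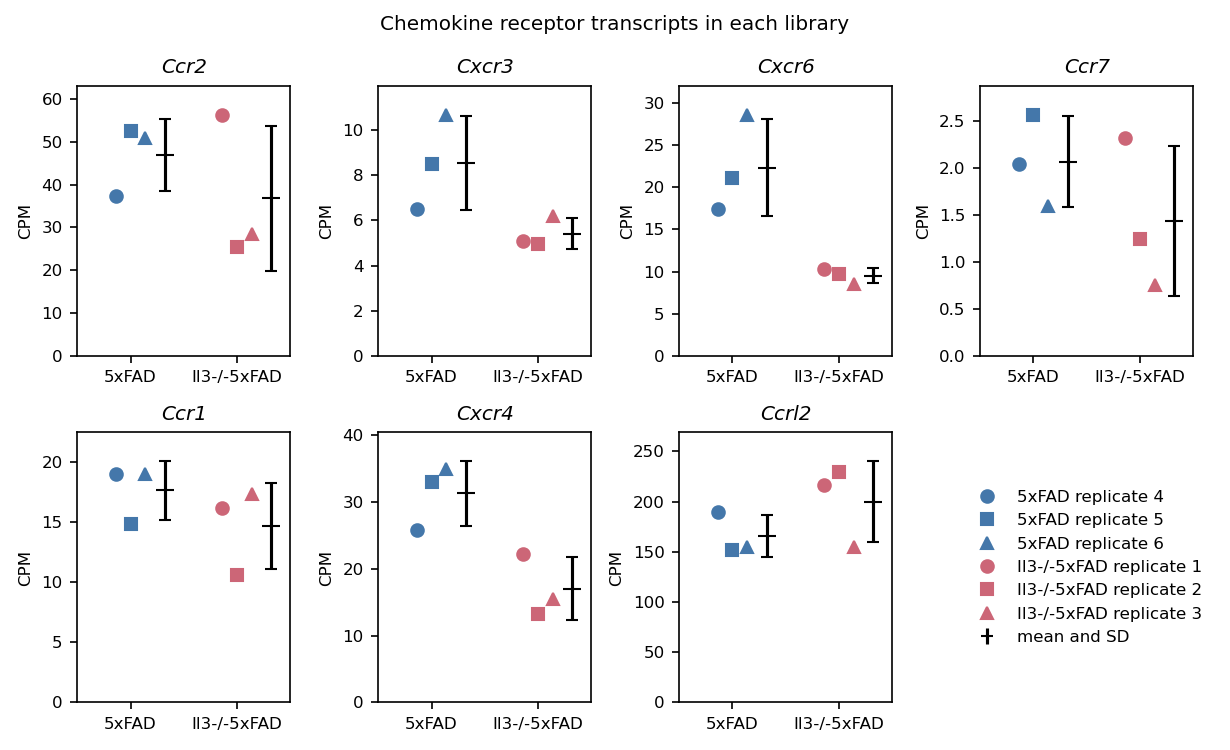
CPM of the 7 receptors (vertical axes from 0, a scale for each gene) in each of the 3 5xFAD libraries (blue) and 3 Il3-/-5xFAD libraries (red), with the mean and SD in black. Cxcr6, Cxcr4 and Cxcr3 separate the groups, Ccr2 is highest in Il3-/-5xFAD replicate 1 (56.3 CPM), and Ccrl2 is highest in Il3-/-5xFAD replicate 2 (229 CPM).

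Counted against all tested genes, 1 of the 7 receptors was called lower (0.63% of tested genes were) and none was called higher (0.252%). By edgeR 1 of 7 was called lower (0.294% of genes) and by DESeq2 2 of 7, Cxcr6 and Cxcr4 (3.45%). In 3 of the 7, Cxcr3, Cxcr4 and Cxcr6, all Il3-/-5xFAD libraries lay below all 5xFAD libraries (11.5% of tested genes). In none did they lie above (9.65%). An unadjusted limma p under 0.05 was found for the same 3 receptors, against 16.5% of tested genes. The log2 difference was negative for 6 of the 7 (50.1% of tested genes), with a median of -0.42, where the median of all tested genes was -0.001. With 7 genes such counts describe this list only, and the genes were chosen with earlier results of these data known.

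The receptors of infiltrating leukocytes and the microglial receptor Cx3cr1 differed in the sign of their values. The 4 of the former (Ccr2, Ccr7, Cxcr3 and Cxcr6) had log2 differences from -1.13 to -0.37 with a median of -0.49. The 3 of several myeloid cells ran from -0.86 to 0.26 with a median of -0.27, which is the value of Ccr1 and was -0.06 without Il3-/-5xFAD replicate 2. Cx3cr1 was at 5616, 5518 and 5396 CPM in 5xFAD replicates 4, 5 and 6 and at 6453, 5681 and 6205 CPM in Il3-/-5xFAD replicates 1, 2 and 3. Its libraries did not overlap, and its log2 difference of 0.15 had an interval from -0.12 to 0.41 (95%, limma; adjusted p = 0.593). The difference between these receptors was not tested, since the 7 genes were chosen with results known.

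Of 17 other chemokine receptors in the table, 8 passed the filter and none was called in either direction. Cxcr2, the neutrophil receptor of Cxcl1 and Cxcl2, had the most negative value of any tested chemokine receptor. It was at 8.79, 13.4 and 15.1 CPM in 5xFAD replicates 4, 5 and 6 and at 8.23, 1.53 and 7.61 CPM in Il3-/-5xFAD replicates 1, 2 and 3, which gave -1.17 ± 0.41 in log2 (SE; limma adjusted p = 0.179). Its groups did not overlap, but their nearest libraries were close. The chemerin receptor gene Cmklr1 was at 263 ± 23.6 and 278 ± 23.2 CPM (SD, n = 3) and did not pass (limma adjusted p = 0.703). Ccr3, Ccr6, Ccr1l1 and Cxcr7, an atypical receptor of Cxcl12, were between 1.05 and 2.19 CPM in the mean of each group, with limma adjusted p from 0.502 to 0.982. The other 9, among them Xcr1 of cross-presenting dendritic cells, Ccr4, Ccr8, Ccr9 and Cxcr5 of lymphocytes and Cxcr1, were below the filter.

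**Figure D2:**
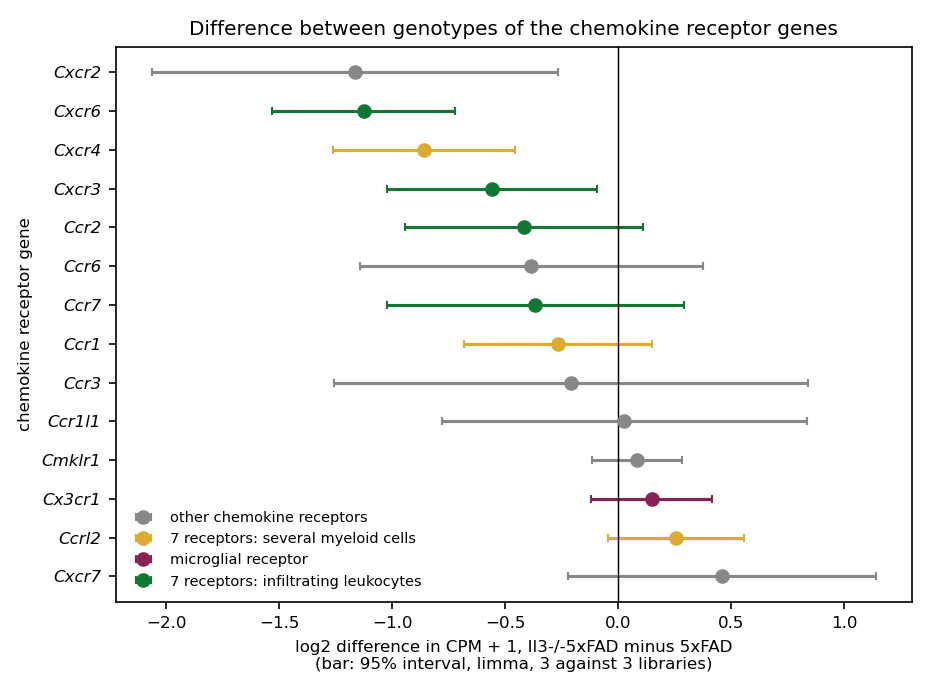
Log2 difference in CPM + 1 (horizontal axis, Il3-/-5xFAD minus 5xFAD) with the 95% interval from limma for 14 tested chemokine receptors, coloured by class. Cxcr2 (-1.17), Cxcr6 (-1.13), Cxcr4 (-0.86) and Cxcr3 (-0.56) have intervals below 0, and the microglial receptor Cx3cr1 (0.15) lies near 0.

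Markers of T cells, monocytes and neutrophils, which carry these receptors, had mostly negative differences between the same libraries. In a bulk library fewer cells of a type and less RNA per cell cannot be told apart. Of 18 T-cell markers, all tested, 3 fell (Cd3d, Cd3g and Lck), none rose, and 14 were lower without overlap between the groups, where 0.63% and 11.5% of all tested genes were called lower and lower without overlap. Their median log2 difference was -1.05 and their summed level ran from 134 to 290 CPM in 5xFAD and from 69.8 to 94.0 CPM in Il3-/-5xFAD. No T-cell marker was at 0 in any library. Of the most abundant, Cd8a was at 31.3 ± 16.1 and 12.4 ± 2.59 CPM, Lck at 22.5 ± 6.94 and 9.05 ± 1.51 CPM and Cd3g at 21.1 ± 7.44 and 7.58 ± 0.403 CPM (SD, n = 3).

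Of 16 tested monocyte markers of 18, 3 fell (Itgal, Ly6c2 and Gda; 0.63% of all tested genes) and none was called higher. Without overlap 13 were lower (11.5% of all tested genes) and 1 was higher (9.65%), and the median of the markers was -1.09. Their summed level was 1095 to 1134 CPM in 5xFAD and 1072 to 1193 CPM in Il3-/-5xFAD, of which Klf2 alone gave 642 ± 163 and 940 ± 100.1 CPM (SD, n = 3). Klf2 is a transcription factor that other cells express too, and without this most abundant gene the sums were 310.0 to 606 CPM and 119 to 248 CPM. Of 15 neutrophil markers Csf3r, at 661 ± 34.6 and 674 ± 37.4 CPM, was the most abundant, and the sum of the other 14 ran from 1243 to 3301 CPM in 5xFAD and from 217 to 849 CPM in Il3-/-5xFAD. Of 13 tested neutrophil markers 5 fell (S100a8, S100a9, Camp, Mmp9 and Retnlg; 0.63% of all tested genes) and none rose, with a median of -1.87. The markers named here as fallen were named after their values were seen.

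Lists of other cells held no called gene. NK-cell markers summed to 47.7 to 60.8 CPM in 5xFAD and to 27.5 to 31.4 CPM in Il3-/-5xFAD, with Nkg7 at 19.2 ± 5.30 and 7.93 ± 3.13 CPM (SD, n = 3) and a median over 9 tested genes of -0.51. Dendritic-cell markers had a median of -0.25 over 9 tested genes, and microglial markers one of 0.15 over 10. Border-associated macrophage markers had a median of -0.33 over 10, while their sum was higher in Il3-/-5xFAD (1103 to 1281 CPM) than in 5xFAD (925 to 1009.7 CPM). Stab1 was the most abundant gene. Without it the other 9 summed to 137 to 174 CPM in 5xFAD and to 107 to 140 CPM in Il3-/-5xFAD. Of 10 B-cell markers 9 were below the filter, Cd79b being the exception, and 6 had no read in at least 1 library.

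Each receptor was then set against the marker list of a cell type known to carry it, as log2(CPM + 1) of the receptor minus the mean log2(CPM + 1) of the list in the same library. Against T-cell markers Cxcr6 was at 1.00, 1.52 and 1.05 in 5xFAD replicates 4, 5 and 6 and at 1.03, 1.00 and 1.15 in Il3-/-5xFAD replicates 1, 2 and 3. These values overlapped, and their difference was -0.13 (exact two-sided permutation test, p = 0.60). Against microglial markers Cxcr6 differed by -1.26 without overlap (exact permutation p = 0.10). Cxcr3 against T-cell markers differed by 0.44 (exact permutation p = 0.30) and Cxcr4 against monocyte markers by 0.13 (exact permutation p = 0.40), both with overlap. Cxcr4 against neutrophil markers differed by 0.66, also with overlap (exact permutation p = 0.30), and against microglial markers by -0.996 without overlap (exact permutation p = 0.10). Cxcr3 against microglial markers differed by -0.69 without overlap (exact permutation p = 0.10). Cxcr6 and the mean of T-cell markers were both lower in the Il3-/-5xFAD libraries, as were Cxcr4 and the mean of monocyte markers. The part of cell numbers in this was not tested. Within 5xFAD, T-cell markers were lowest in replicate 5 and Cxcr6 was lowest in replicate 4.

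For Ccr2, Ccr1 and Ccrl2 the list used mattered. Against monocyte markers Ccr2 was at 1.22, 1.04 and 1.22 in 5xFAD replicates 4, 5 and 6 and at 2.07, 1.80 and 1.33 in Il3-/-5xFAD replicates 1, 2 and 3, higher in all 3 by 0.57 in the mean (exact permutation p = 0.10). Ccr1 was higher against the same list by 0.72 (exact permutation p = 0.10), and Ccrl2 was higher against neutrophil markers by 1.78 (exact permutation p = 0.10). In these 3 comparisons the groups did not overlap. The means of the lists themselves differed by -0.99 (monocyte) and -1.52 (neutrophil), so a gene with little difference comes out higher against them. The receptors' own log2 differences were -0.42 (Ccr2), -0.27 (Ccr1) and 0.26 (Ccrl2). Against microglial markers all 3 overlapped, with differences of -0.55 (Ccr2), -0.40 (Ccr1) and 0.12 (Ccrl2; exact permutation p of 0.20, 0.20 and 0.60). Ccr7 differed by 0.63 against T-cell markers and by -0.11 against dendritic-cell markers (exact permutation p = 0.30 and 0.50), with overlap in each, and by -0.50 against microglial markers (exact permutation p = 0.20), also with overlap. With 3 libraries against 3 such a test cannot go below 0.10, and adjusted over the 16 comparisons the lowest p was 0.267, so none of them passed.

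**Figure D3:**
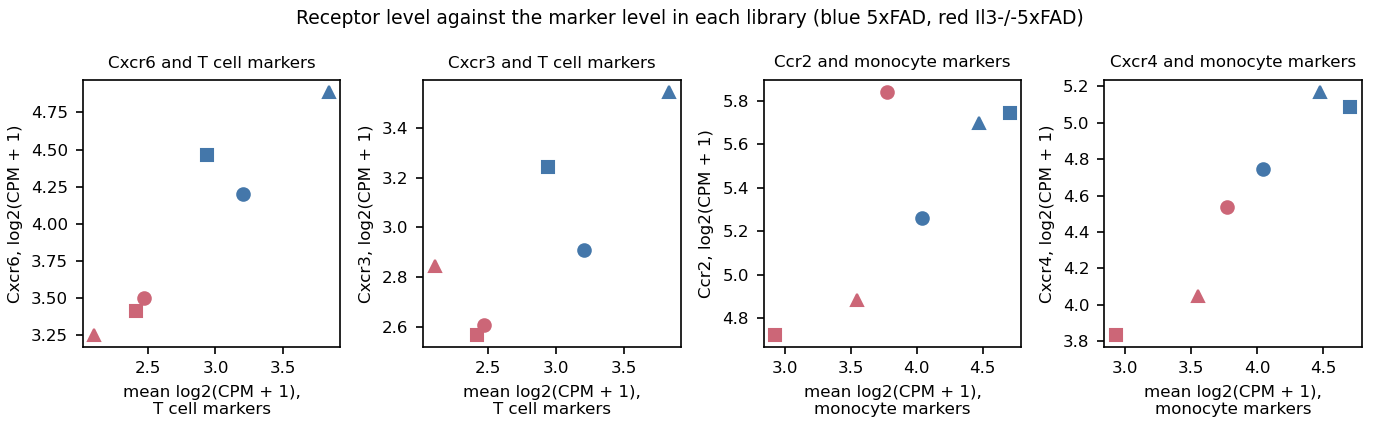
Level of Cxcr6, Cxcr3, Ccr2 and Cxcr4 (vertical axes, log2(CPM + 1)) against the mean log2(CPM + 1) of T-cell or monocyte markers (horizontal axes) in the 3 5xFAD (blue; circle, square and triangle for replicates 4, 5 and 6) and 3 Il3-/-5xFAD libraries (red; replicates 1, 2 and 3). Cxcr6 and Cxcr4 are lower in the Il3-/-5xFAD libraries, as are the markers, while Ccr2 of Il3-/-5xFAD replicate 1 lies above every other library.

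The genes most like a receptor were those whose log2(CPM + 1), less its mean over the 6 libraries, lay nearest to that of the receptor, among genes averaging 5 CPM or more. They were the nearest of 9807 such genes (9808 for Ccr7), and their nearness was not tested. For Cxcr6 these were Gimap3, a GTPase gene of lymphocytes, Thy1, a surface gene of T cells and neurons, and the cytokine receptor gene Il27ra. Their mean distances over the 6 libraries were 0.08, 0.10 and 0.10. Gimap3 averaged 14.5 CPM (5xFAD) and 5.73 CPM (Il3-/-5xFAD). For Cxcr4 they were Cd74, the invariant chain of MHC class II, the calcium pump gene Atp2a3 and Fxyd5, at distances of 0.045, 0.056 and 0.067. Cd74 stayed within 0.097 of Cxcr4 in every library, although it was at 842 and 504 CPM in the mean. For Ccr2 they were the lectin receptor gene Clec4a1, Ms4a7, a gene of border-associated macrophages, and Myof, at 0.127, 0.133 and 0.137. For Ccr7 they were Il1rap, 4930503L19Rik and the thyroid hormone receptor gene Thra, at 0.102, 0.105 and 0.106. The nearest of the 7 receptors to Cxcr6 was Cxcr4, at 0.201. The receptors named here had ranges of at least 1 in log2, and Ccr1, Cxcr3 and Ccrl2 did not.

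Ccr1, Ccr2, Cxcr6 and Ccrl2 lie on chromosome 9, Ccr7 on chromosome 11, which carries Il3, Cxcr4 on chromosome 1 and Cxcr3 on chromosome X. Neighbours on chromosome 9 did not share 1 direction. In the order of the RefSeq table of GRCm38.p6, the tested genes from Fyco1 to Ccr2 had log2 differences of 0.24 (Fyco1), -1.13 (Cxcr6), -0.27 (Ccr1), 0.03 (Ccr1l1), -0.21 (Ccr3) and -0.42 (Ccr2). Cxcr6 was the only one of these that passed. Cxcr6 lies within Fyco1 on the other strand, but in GENCODE no exonic base is shared, and Fyco1 was at 59.0 ± 7.73 and 69.7 ± 6.39 CPM (SD, n = 3). Ccrl2, elsewhere on the chromosome, is next to Ltf, the lactoferrin gene of neutrophil granules, at 345 ± 163 and 103 ± 60.4 CPM (log2 difference -1.87 ± 0.47, SE; limma adjusted p = 0.0807) where Ccrl2 had 0.26. Ccr7 was 496 tested genes away from Il3.

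**Figure D4:**
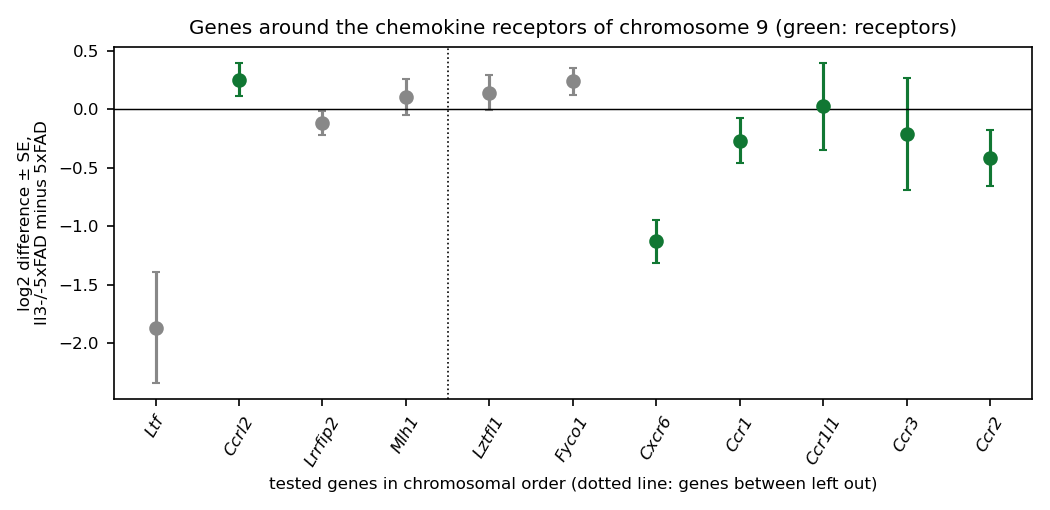
Log2 difference (vertical axis, Il3-/-5xFAD minus 5xFAD, with SE) of tested genes in chromosomal order around Ccrl2 and around the receptor cluster on chromosome 9, with receptors in green. Cxcr6 (-1.13) lies between Fyco1 (0.24) and Ccr1 (-0.27), and Ccrl2 (0.26) beside Ltf (-1.87).

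Ligands of the receptors, except those of Ccr7, were measured in the same cells. None of the 14 tested ligand genes was called, and 5 were lower in Il3-/-5xFAD without overlap (11.5% of all tested genes). Of these 5, Ccl8 and Cxcl11 reached 1 CPM in no Il3-/-5xFAD library, so the filter fixed their separation in advance. The log2 difference was negative for 10 of the ligand genes (50.1% of all tested genes) and positive for 4, with a median of -0.31. Of the ligands of Ccr2, Ccl2 was at 38.0 ± 7.60 and 38.9 ± 6.60 CPM and Ccl12 at 59.1 ± 6.45 and 59.2 ± 12.97 CPM (SD, n = 3). Their limma adjusted p was 0.932 and 0.977. Ccl7 was at 4.23 ± 1.08 and 3.20 ± 0.500 CPM (SD, n = 3), with overlap and a limma adjusted p of 0.565. Ccl8 was at 2.54, 1.95 and 2.55 CPM in 5xFAD replicates 4, 5 and 6, at 0.806 and 0.213 CPM in Il3-/-5xFAD replicates 1 and 2, and without a read in replicate 3. Its log2 difference of -1.36 ± 0.31 (SE) did not pass (limma adjusted p = 0.0610), and on the recovered reads, without the added 1 CPM, the difference was -2.81 by DESeq2 (adjusted p = 0.0202). It had the most negative value of the 14.

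The ligand of Cxcr6 was lower in the same direction as its receptor but by less. Cxcl16 was at 104 CPM in each 5xFAD library and at 73.9, 96.7 and 87.5 CPM in Il3-/-5xFAD replicates 1, 2 and 3, which gave -0.28 ± 0.10 in log2 (SE; limma adjusted p = 0.182). None of the Cxcr3 ligands passed the test. Cxcl11 met the filter through the 5xFAD libraries alone, which fixed its separation in advance. Cxcl9 had 8.66 ± 2.11 and 5.32 ± 0.946 CPM and Cxcl11 1.07 ± 0.107 and 0.295 ± 0.0429 CPM, both without overlap, while Cxcl10, the most abundant, was at 31.4 ± 8.17 and 38.2 ± 12.8 CPM (SD, n = 3; limma adjusted p of 0.188, 0.260 and 0.596). Among ligands of Ccr1, Ccl3 (565 ± 16.4 and 574 ± 57.0 CPM), Ccl9 (162 ± 10.8 and 166 ± 24.7 CPM) and Ccl6 (301 ± 54.3 and 244 ± 47.8 CPM) overlapped between the groups. Ccl5, which T cells and NK cells make, was at 22.5, 26.7 and 44.0 CPM in 5xFAD replicates 4, 5 and 6 and at 18.1, 14.6 and 17.3 CPM in Il3-/-5xFAD replicates 1, 2 and 3, a separate pair of groups whose log2 difference of -0.81 ± 0.21 (SE) did not pass (limma adjusted p = 0.0823; DESeq2 0.00404). Of the ligands of Cxcr4, Cxcl12 was at 2.54 ± 1.15 and 1.34 ± 1.43 CPM and Mif at 39.5 ± 8.49 and 29.2 ± 6.57 CPM (SD, n = 3), both with overlap. Rarres2, which encodes chemerin, the ligand of Ccrl2, was below the filter, at 0.143 to 0.213 CPM in 5xFAD and without a read in Il3-/-5xFAD.

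**Figure D5:**
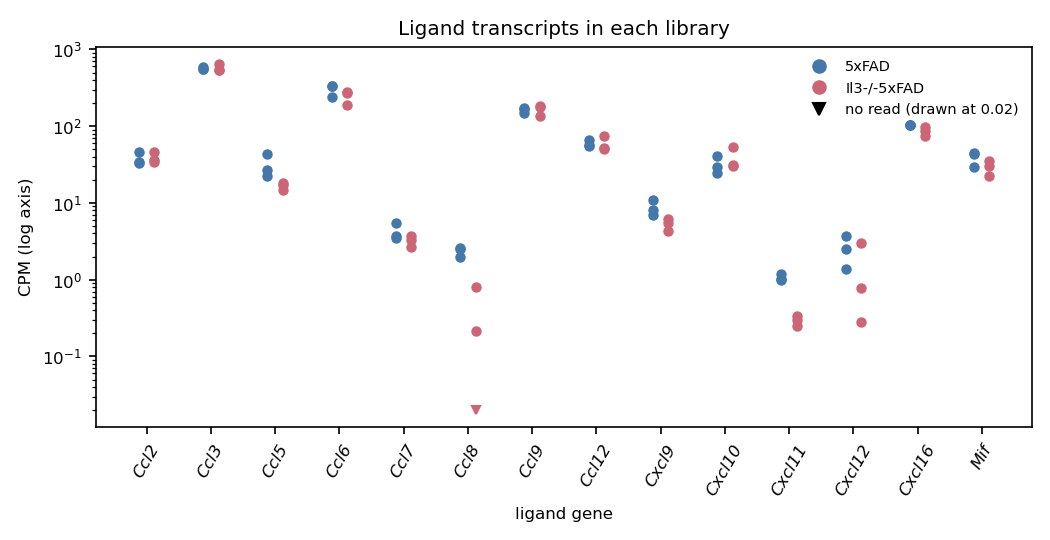
CPM (vertical axis, logarithmic) of the 14 tested ligand genes in each 5xFAD (blue) and Il3-/-5xFAD (red) library, a triangle marking a library without a read. Ccl3 leads at 565 and 574 CPM in the mean, and Ccl8, Cxcl11, Ccl5, Cxcl9 and Cxcl16 separate the groups. For Ccl8 and Cxcl11 the filter fixed this separation in advance.

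Genes of the signalling machinery behind the receptors did not pass. Of 41 tested genes for G proteins, arrestins, receptor kinases, regulators of G-protein signalling and the cytoskeleton none was called. The log2 difference was negative for 20 and positive for 21, with a median of 0.01. In 2 the Il3-/-5xFAD libraries all lay below 5xFAD (11.5% of all tested genes) and in 8 all above (9.65%). Rgs2, which ends G-protein signals, was at 1022 ± 60.4 and 1176 ± 74.4 CPM and Gnai2, the main inhibitory G-protein subunit of leukocytes, at 800 ± 29.9 and 732 ± 77.3 CPM (SD, n = 3; limma adjusted p of 0.287 and 0.516).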

How the data were processed

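Per the labels' protocols, total RNA of the sorted cells went through a polyA-selecting directional library kit. The authors deposited CPM values (reads scaled to a library total of 1000000) in 1 table of 6 libraries. Per the submitters' processing notes, the tools were edgeR, HTSeq and STAR and the build was mm9. The annotation and the counting mode are not given. All deposited CPM values were whole multiples of 1 read (100% within 0.01 reads), so reads were recovered. The test was limma 3.58.1 in R 4.3.3 (lmFit, eBayes with trend, two-sided) on log2(CPM + 1), which understates changes of low genes, over 11900 genes, with differences taken from 5xFAD to Il3-/-5xFAD, Benjamini-Hochberg adjustment and calls under 0.05. Values after ± are SD of 3 libraries unless SE is written. Single values were compared by exact two-sided permutation over the 6 libraries.

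The 7 genes and all lists were chosen with earlier results of these data known. Some genes counted in the lists are not reported here by name. Named were the 7 receptors, other receptors and ligands that passed the filter, the 2 most abundant signalling genes when none was called, up to 3 most abundant markers of each list, and the 3 genes nearest to each receptor with a range of at least 1 in log2. The alternatives tried were no filter, a filter at an average of 5 CPM, pseudocounts of 0.25 and 5, quantile and median-ratio scaling, eBayes without trend or robust, array weights, edgeR 4.0.16 (TMM factors or totals) and DESeq2 1.42.0 on the reads, and each library left out. On simulated reads of 11719 genes for this comparison, limma found 75.8% of the 2-fold and 94.9% of the 4-fold changes, with 14 false calls of 183. Promoters are from RefSeq (GRCm38.p6), found for 6 of 7 receptors. Figures were drawn with matplotlib 3.10.9.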

Additional observations from a re-analysis of the deposited data

How the results depend on the processing

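The number of receptors called was 1 in the reported test. It was 0 with no filter and without the variance trend, 2 with robust estimation and by DESeq2, and 3 with array weights (Cxcr6, Cxcr4 and, higher, Ccrl2); with 1 library left out it ran from 0 to 3. In the other 7 alternatives it was 1. No log2 difference of the 7 receptors changed sign in any alternative that tested it; Ccr7 was not tested with a mean of at least 5 CPM. Cxcr6 ran from -1.29 to -0.90 and was called in 13 of 18 alternatives, Cxcr4 from -1.06 to -0.71 and in 5 of 18, Ccrl2 from 0.15 to 0.43 and in 2 of 18, Ccr2 from -0.76 to -0.20 and in 1 of 18; Cxcr3 (-0.72 to -0.37), Ccr1 (-0.39 to -0.06) and Ccr7 (-0.61 to -0.14) were called in none. Of all tested genes limma called 105; it called 8 with no filter, 68 with a filter at an average of 5 CPM or median-ratio scaling, 10 without the trend, 952 with array weights, and between 11 (5xFAD replicate 6 left out) and 587 (Il3-/-5xFAD replicate 3 left out) on 5 libraries; edgeR called 60 with TMM factors and 69 with totals, and DESeq2 605. Against T-cell markers Cxcr6 ran from -0.25 to 0.03, and against dendritic-cell markers Ccr7 ran from -0.25 to 0.06, over 8 alternatives each. The medians of the infiltrating-leukocyte and several-myeloid-cell receptors, whose alternatives were added after the data had been seen, ran from -0.69 to -0.37 and from -0.39 to -0.06, the latter bounds without Il3-/-5xFAD replicates 3 and 2. No paired analysis was possible because the groups share no replicate number. Ccr7 rested on 25 to 75 reads per library, which limits its precision.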
